A study of Mus musculus with 25 samples.

Results

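The genes described here are 10 inducible feedback inhibitors of MAPK and cytokine signaling, Dusp1, Dusp2, Ier2, Ier3, Ier5, Zfp36, Socs3, Ppp1r15a, Btg2 and Gadd45b, out of 43411 genes measured by RNA sequencing of sorted microglia. They were chosen by name, with earlier results of these data known, and their gene identifiers in the deposited counts were matched to these symbols. Microglia were sorted as CD11b+ and CD45med cells from 3 month old mice, 1 library per mouse. Homozygous Bin1-cKO mice (Bin1flox/flox Thy1-Cre+, n = 10, 5 females and 5 males) were compared with heterozygous Bin1-cKO mice (Bin1flox/wt Thy1-Cre+, n = 7, 4 females and 3 males) and with WT littermates (Bin1flox/wt Thy1-Cre-, n = 6, 2 females and 4 males). The WT littermates therefore carried 1 floxed Bin1 allele as well, and every mouse carried at least 1. By the study's account the Thy1-Cre line deletes Bin1 in forebrain excitatory neurons, and the comparison asks how microglia differ in mice with that deletion. Whether microglia recombined as well was not tested.

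Total counts per library ranged from 10812877 to 16734740. All WT and heterozygous mice have animal numbers in the range labelled 02, whereas homozygous mice have numbers in the range 03 (n = 6) or the range 04 (n = 4), so genotype and number range cannot be told apart. The 10 microglia markers were present in every group, and their summed level was 63618 to 90590 CPM (read counts scaled to the TMM-normalized size of each library) in WT littermates and 56327 to 65539 CPM in homozygous mice. Lymphocyte markers were near 0 in all groups (at most 1.33 CPM summed over 8 genes). The 6 endothelial markers summed to 37.2 to 69.8 CPM in WT littermates and 26.8 to 52.0 CPM in homozygous mice, nearly all of it Pecam1, with Cldn5 and Tek at 0. Over 10 neuronal markers the sum was 12.0 to 36.2 CPM in WT littermates and 4.89 to 8.78 CPM in homozygous mice, and over 5 monocyte markers it was 4.63 to 10.6 and 8.81 to 25.3 CPM, respectively. The neutrophil markers had a median sum of 7.32 CPM in WT littermates and 17.6 CPM in homozygous mice. The part of these cells in the results below was not tested, and in bulk RNA fewer cells of a type and less RNA per cell cannot be told apart. In 8 of 10 homozygous mice the Bin1 level of the microglia themselves was lower than in any mouse of the other genotypes.

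Cells that receive a mitogen, cytokine or stress signal transcribe a first wave of genes within minutes, and part of that wave encodes proteins that shut the signal off again. Dusp1 and Dusp2 are nuclear phosphatases that remove phosphate from ERK, p38 and JNK. Ier2, Ier3 and Ier5 are small immediate-early proteins. Zfp36 encodes tristetraprolin, which binds AU-rich elements in the 3′ ends of cytokine mRNAs and recruits the CCR4-NOT deadenylase. Socs3 blocks JAK kinases at gp130 receptors, Ppp1r15a brings protein phosphatase 1 to eIF2α and so ends the integrated stress response, Btg2 is an antiproliferative partner of the deadenylase, and Gadd45b binds MAPK kinases and is induced by stress. In microglia these genes are transcribed along with Fos and Jun after stimulation.

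The members share a compact gene structure, and most have AU-rich ends, features that were not used to choose them. Their main transcripts have 1 to 4 exons (median 2, against 9 in 11061 protein-coding genes tested) and span 1240 to 3951 bases of the genome, a size within which 9.23% of those genes fall. An ATTTA pentamer is present in the 3′ untranslated region of 8 of 10 members, not far from the 65.7% of the 10850 tested genes with such a region. At least 3 copies are held by 7 of 10 members and by 33.9% of those genes. The heptamer TATTTAT, which tristetraprolin binds, is in 7 of 10 members (26.9% of those genes, and 19.6% of the 8182 whose region is as long as those of the members). Zfp36 mRNA itself is among them, and Ier2 and Gadd45b have neither motif. The densest 30-base windows of the members that were tested are given below to show these elements, read from the GENCODE transcripts of GRCm38, with TATTTAT in capitals.
Dusp1, chr17:26506167-26506196, minus strand: ggctcatgggagctggtcctTATTTATtta
Dusp2, chr2:127338292-127338321, plus strand: ggggcgttggaaacagcactttaTATTTAT
Ier3, chr17:35822477-35822506, plus strand: tccgtgtctaattaaTATTTATgTATTTAT
Zfp36, chr7:28376962-28376991, minus strand: gggcccttTATTTATgacgacttTATTTAT
Socs3, chr11:117966144-117966173, minus strand: ctcagactttgcacataTATTTATATTTAT
Ppp1r15a, chr7:45522956-45522985, minus strand: tagtttcctatTATTTATTTATTTATTTAT
The window of Ppp1r15a holds 4 overlapping heptamers within a 3′ region of 71 bases, and those of Ier3, Zfp36 and Socs3 hold 2 each. A match is a description of the letters, and binding was not measured.

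Promoter sequences from RefSeq (GRCm38.p6) were matched for 9 of 10 members, not for Ier2. Within 250 bases before the start, the cAMP response element TGACGTCA, read on either strand, was present in Dusp1, Ppp1r15a and Btg2, that is in 3 of 9 matched members and in 1.55% of 32817 promoters. A CArG box, the site of serum response factor, was found in Zfp36 (1.47% of promoters), the STAT motif TTCNNNGAA in Socs3 and Zfp36 (7.01%), a kappaB site in Ier3 (7.25%), and the AP-1 motif TGANTCA in none of the 9 (6.75%). By the GENCODE gene models, however, all 250 bases of the Zfp36 region lie within exons of Zfp36 itself. The same holds for 77 of the 250 bases of Socs3, 47 of Dusp1, 29 of Ier3 and 18 of Gadd45b. The promoters of Dusp1, Ier3 and Ppp1r15a are shown because their genes carry these elements and rose in homozygous mice, with the response element or the kappaB site in capitals and bases of annotated exons left out.
Dusp1 promoter, chr17:26508520-26508722, minus strand: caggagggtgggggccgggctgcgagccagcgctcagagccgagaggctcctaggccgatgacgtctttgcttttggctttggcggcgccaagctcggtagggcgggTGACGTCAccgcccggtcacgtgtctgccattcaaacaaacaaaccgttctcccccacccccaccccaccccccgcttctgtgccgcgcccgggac
Ier3 promoter, chr17:35821463-35821683, plus strand: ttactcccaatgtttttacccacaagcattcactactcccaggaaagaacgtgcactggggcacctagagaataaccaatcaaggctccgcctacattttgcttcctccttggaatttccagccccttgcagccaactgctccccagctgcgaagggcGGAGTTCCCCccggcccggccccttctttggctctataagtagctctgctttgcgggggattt
Ppp1r15a promoter, chr7:45526269-45526518, minus strand: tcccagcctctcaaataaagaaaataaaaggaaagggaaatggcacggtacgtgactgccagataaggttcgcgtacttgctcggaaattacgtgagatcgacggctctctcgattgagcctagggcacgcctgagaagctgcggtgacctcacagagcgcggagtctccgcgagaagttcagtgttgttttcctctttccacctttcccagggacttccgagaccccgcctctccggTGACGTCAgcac
In Dusp1, 135 bases separate the element from the start, and in Ppp1r15a only 4, so the same letters stand at unlike places.

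Ier5 and Btg2 were listed at 0 in all 23 libraries and could not be tested. Both lie on chromosome 1 (GRCm38), Ier5 from 155096361 to 155099636 and Btg2 from 134075170 to 134079120, in a stretch from 106980984 to 163725232 in which 280 of 299 protein-coding genes were listed at 0, against 21.7% of protein-coding genes on other parts of the autosomes. All 40 nearest protein-coding neighbours of each were at 0 too, whereas at most 4 of 40 were around any other member. The level of these members was not analysed here. Of the related genes listed further below, Ppp1r15b, Rgs1, Rgs2, Mapkapk2, Il10 and Ptgs2 were at 0 in the same stretch and were not tested.

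The 8 members with counts spanned a wide range of levels. Per kilobase of exon, the median in WT littermates was 36.8 CPM for Zfp36, 13.02 for Socs3, 9.84 for Ppp1r15a, 8.70 for Ier2, 3.98 for Ier3, 1.46 for Dusp1, 0.428 for Dusp2 and 0.400 for Gadd45b. The WT ranges of Zfp36 and Socs3 did not overlap, nor did those of Ier2 and Ier3 or of Ier3 and Dusp1, while the other neighbours in this order overlapped. In homozygous mice the order of the medians was the same except that Ier2 (26.8 CPM per kilobase) stood above Ppp1r15a (13.2). By its median, tristetraprolin mRNA was the most abundant of these inhibitors in every genotype, and the MAPK phosphatases were among the 3 lowest.

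Homozygous mice had higher levels than WT littermates for 7 of the 8 members tested. A gene was called where edgeR's quasi-likelihood test gave an adjusted p under 0.05 together with more than 1.5-fold change. Of all 12908 genes tested, 1.65% were called higher and 3.4% in either direction. The members' median log2 fold change was 2.39, beside 0.01 over all genes. Gadd45b, the member that was not called, passed the filter on low counts through the homozygous mice alone, so its presence among the tested genes is tied to their level. As the plot of levels by mouse shows, the rise was uneven, and the same 4 homozygous mice were highest for 7 of the 8 genes.

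**Figure D1:**
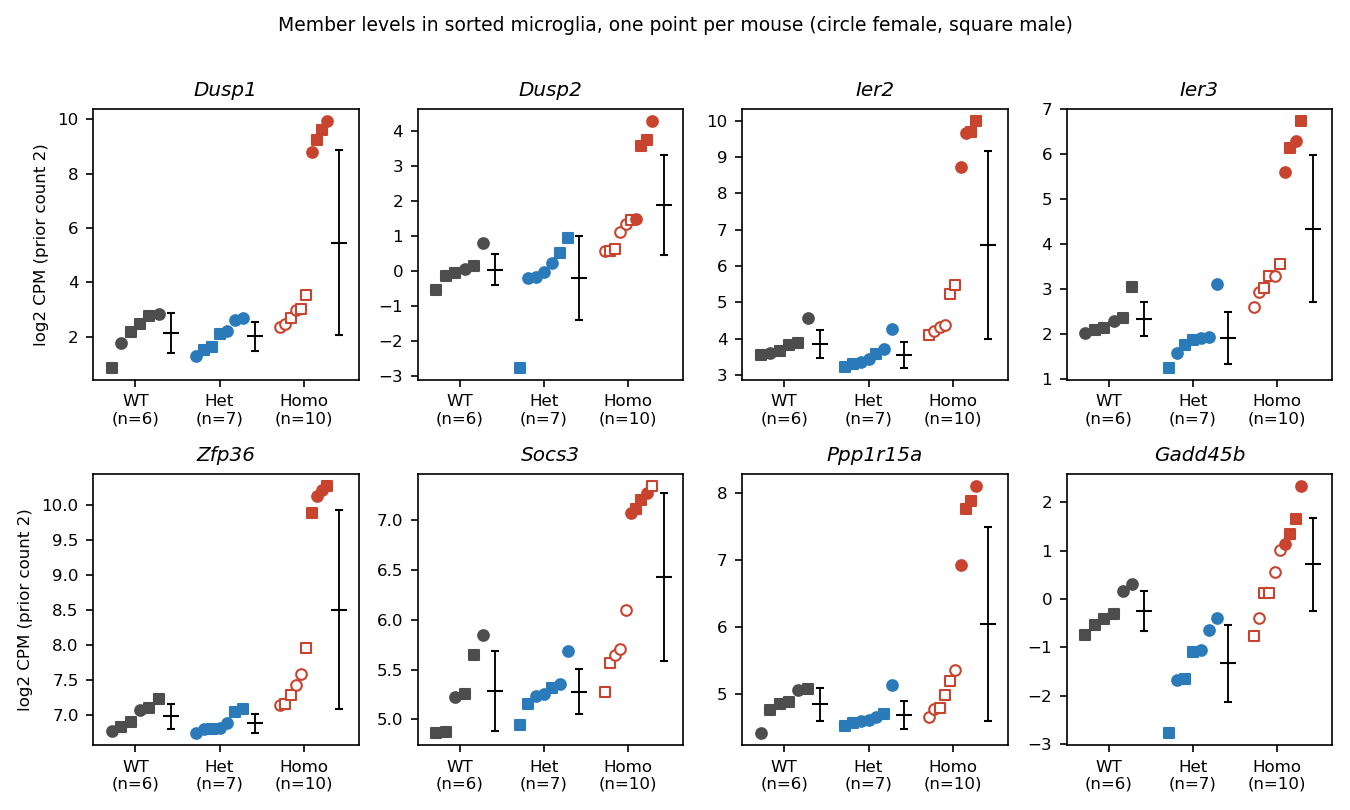
Levels of the 8 tested members as log2 CPM (prior count 2, y axis) in each mouse, by genotype (x axis), with circles for females and squares for males; filled red symbols are homozygous F1, F2, M1 and M2, and black bars give the mean and SD. For Dusp1, Ier2, Ier3, Zfp36 and Ppp1r15a the 4 filled symbols stand clear of all other mice, whereas for Socs3 a 5th homozygous mouse, M4, is as high.

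Dusp1 (chromosome 17 from 26505590 to 26562128) showed the largest rise of the MAPK phosphatases. Its CPM in WT littermates were 3.23, 7.04, 5.32, 4.34, 1.67 and 6.70, and heterozygous mice ranged from 2.32 to 6.22 around a median of 4.17. Homozygous mice ranged from 5.01 to 973 CPM around a median of 9.65, with 440 to 973 CPM in F1, F2, M1 and M2 and at most 11.3 CPM in the others. The 4th and the 5th highest homozygous mouse were 38.9-fold apart, and 7 of 10 exceeded every WT littermate. The log2 fold change was 5.89 (SE 1.28, with 0.0039 as the adjusted p of the edgeR fit). Its gene model overlaps Ergic1, and the strand setting of the counting was not given in the sources used here.

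Dusp2 (chromosome 2 from 127336159 to 127338376), the lower expressed phosphatase, was at 0.902, 1.61, 0.750, 0.956, 0.532 and 0.812 CPM in WT littermates. In homozygous mice it ranged from 1.33 to 19.4 CPM with a median of 2.51, and 7 of 10 exceeded every WT littermate. Among them only F1, M1 and M2 stood apart (11.9 to 19.4 CPM), and F2 at 2.66 CPM was next to M3 at 2.63. The log2 fold change was 2.64 (SE 0.67 and adjusted p = 0.011). Heterozygous M1 had a count of 0, which allows up to 0.256 CPM by counting error alone.

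The immediate-early genes Ier2 and Ier3 followed the pattern of Dusp1. Ier2 (chromosome 8 from 84661331 to 84662852) was at 11.9, 23.6, 11.5, 14.5, 12.4 and 14.1 CPM in WT littermates and from 16.9 to 1012 CPM in homozygous mice (median 40.8). The high mice had 418 to 1012 CPM, M3 and M4 had 44.2 and 37.3 CPM, and the other 4 lay within the WT range. Its log2 fold change was 4.45 (SE 0.94 and adjusted p = 0.0032). Ier3 (chromosome 17 from 35821684 to 35822923) was at 4.73, 3.89, 4.12, 4.93, 4.26 and 8.12 CPM in WT littermates and from 5.88 to 105.9 CPM in homozygous mice (median 10.6), with a log2 fold change of 2.84 (SE 0.62 and adjusted p = 0.0041). For Ier3, 7 of 10 homozygous mice exceeded every WT littermate, and 10 of 10 exceeded all but WT M4.

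Zfp36 (chromosome 7 from 28376784 to 28380253) was the member whose homozygous mice were all above the heterozygous ones. WT littermates had 109, 135, 120, 137, 114 and 150 CPM, heterozygous mice had 108 to 136 CPM, and homozygous mice ranged from 141 to 1235 CPM with a median of 220. All 10 homozygous mice lay above every heterozygous mouse, a separation in this direction found in 1.36% of genes tested, and 8 of 10 lay above every WT littermate. The log2 fold change against WT was 2.13 (SE 0.48 and adjusted p = 0.0055). Ppp1r15a (chromosome 7 from 45522916 to 45526268) had 21.2, 33.2, 29.2, 28.5, 33.5 and 26.9 CPM in WT littermates. It reached 121 to 275 CPM in F1, F2, M1 and M2, and the other 6 homozygous mice, at 24.9 to 40.9 CPM, largely overlapped the WT values. Its log2 fold change was 1.86 (SE 0.50 and adjusted p = 0.016).

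Socs3 (chromosome 11 from 117966079 to 117970047), the inhibitor of gp130 and JAK signaling, differed from the rest in the mice that carried the rise. WT littermates had 37.3, 57.5, 37.9, 29.2, 29.1 and 49.8 CPM. The highest value was 161 CPM in M4, ahead of F1, M1, M2 and F2 (134 to 153 CPM), and the remaining 5 homozygous mice had 38.6 to 68.1 CPM. M4 had 1.97 CPM of Fos, where the highest WT littermate had 1.73. The log2 fold change was 1.29 (SE 0.29 and adjusted p = 0.0051). Gadd45b (chromosome 10 from 80930073 to 80932204) was scarce, with 6 to 15 counts per WT library (0.450 to 1.10 CPM), 0 to 9 counts per heterozygous library and 6 to 65 counts per homozygous library (0.444 to 4.90 CPM). Its log2 fold change of 1.26 had an adjusted p of 0.080 by the same edgeR test, and 6 of 10 homozygous mice lay above and 1 below all WT littermates.

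The 4 homozygous mice that stood apart are F1, F2, M1 and M2, 2 females and 2 males, all with numbers in the range 03. Their Fos levels, an immediate-early transcription factor, were 824 to 1459 CPM, and no other homozygous mouse exceeded 7.0 CPM. They held the 4 highest values for 7 of the 8 tested members. F3 and M3, from the same number range, did not share this, with median differences from the WT mean of 0.56 and 0.97 on the log2 CPM scale, against 2.61 to 3.62 in the 4 mice. The same difference was 0.26 to 0.56 in the mice of the range 04. The 4 libraries did not stand apart in total count (10812877 to 16734740, against 12816678 to 16212614 in the other 6) or in neutrophil markers (13.6 to 50.4 CPM, against 0.658 to 52.2). Their border macrophage markers, summed over 6 genes, were lower (5.501 to 15.7 CPM, against 20.97 to 32.9), with the defining marker Mrc1 at 0 in every genotype. Astrocyte markers were at 1.53 to 5.94 CPM, against 5.04 to 12.1, and endothelial markers at 44.5 to 52.0 CPM, against 26.8 to 48.1. The part of these cells in the result was not tested.

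**Figure D2:**
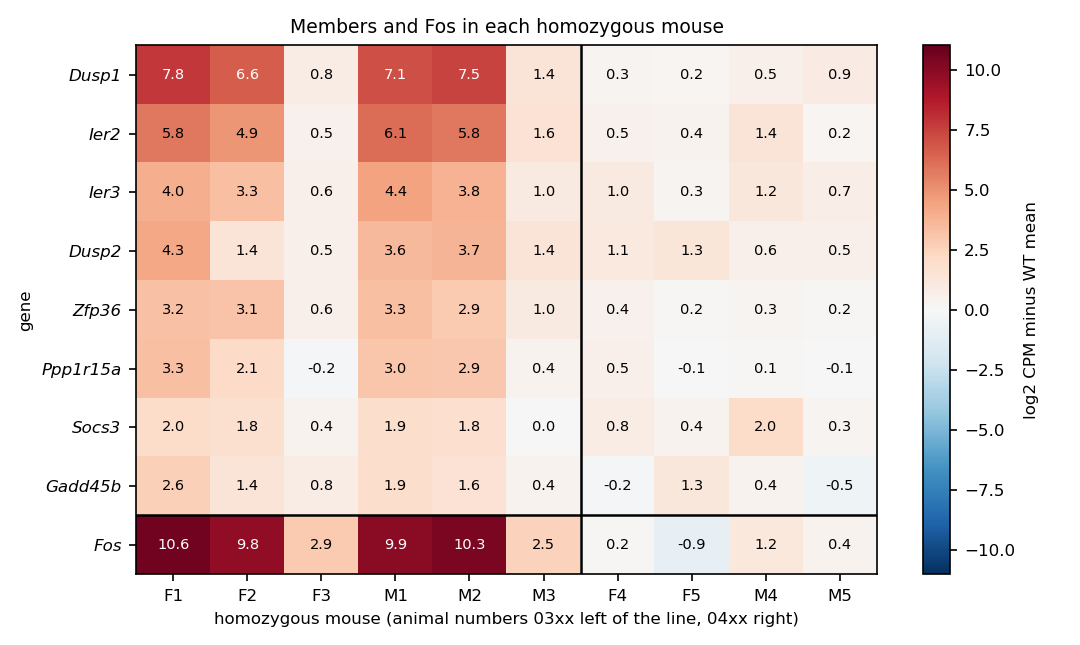
Difference of each homozygous mouse from the WT mean on the log2 CPM scale (color and printed value) for the 8 tested members and Fos (rows) in 10 mice (columns), with the number ranges 03 and 04 on either side of the vertical line. Columns F1, F2, M1 and M2 are red in every row, while M4 reaches 2.0 for Socs3 alone.

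Homozygous F1, F2, M1 and M2 were set apart by their high values in these same data, so leaving them out favours smaller differences. Without these 4 mice, the remaining 6 homozygous mice had a fitted log2 fold change above 0 for 8 of 8 members, with a median of 0.70. Of the 8 members 1 was called, where 2.52% of all genes were. Ier2 kept its call (log2 fold change 0.83, SE 0.24, adjusted p = 0.037). Zfp36 passed the adjusted p with a change below the fold threshold (0.48, SE 0.11, adjusted p = 0.013). Dusp1 was at 0.62 (95% confidence interval -0.04 to 1.27, adjusted p = 0.25) and Ppp1r15a at 0.12 (-0.16 to 0.41, adjusted p = 0.66). With the mice of the range 04 alone, Socs3 was called (log2 fold change 1.03, adjusted p = 0.024) and the other 7 were not, where 2.5% of all genes were called. With all mice, an exact permutation test over 8008 splits, adjusted over all genes, passed 0 of 8 members (7 at an unadjusted p below 0.05, where 26.2% of all genes were, with an adjusted p between 0.068 and 0.22). With the fold threshold that test called 2.19% of all genes. By limma-voom only Zfp36 and Socs3 of the 8 members were called, where 3.86% of all genes were. On the mean log2 CPM that the permutation test uses, the difference for Dusp1 was 3.32 in place of 5.89.

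No difference of heterozygous mice from WT littermates passed the threshold. By edgeR's quasi-likelihood test 0 of 8 members were called, as were 0% of all genes, and 1 of 8 had an unadjusted p below 0.05, where 7.73% of all genes did. DESeq2 and limma-voom also called 0 of 8. That member was Gadd45b, at 0 to 0.619 CPM in heterozygous mice, with a log2 fold change of -1.42 (SE 0.55 and adjusted p = 0.57). The 95% interval of the log2 fold change was narrowest for Socs3, from -0.69 to 0.58, and widest for Dusp1, from -3.04 to 2.54, in a fit whose estimate of spread includes the homozygous mice. The SD of log2 CPM of Dusp1 was 0.74 in WT littermates and 0.54 in heterozygous mice.

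Against heterozygous mice, 8 of 8 tested members were higher in homozygous mice, where 2.32% of all genes were called higher and 6.62% in either direction. Of these, Gadd45b was in the tested set through the homozygous mice alone. This comparison uses the same homozygous libraries as the one with WT littermates and is not independent of it. The log2 fold changes were 6.14 for Dusp1, 4.73 for Ier2, 3.14 for Ier3, 2.68 for Gadd45b, 2.67 for Dusp2, 2.23 for Zfp36, 2.01 for Ppp1r15a and 1.35 for Socs3. Their adjusted p ranged from 0.00060 to 0.0042. Without the 4 mice, Ier2, Ier3, Socs3 and Gadd45b remained called, with log2 fold changes of 1.13, 1.15, 0.84 and 1.84, where 3.97% of all genes were called. The plot of fold changes sets these comparisons side by side.

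**Figure D3:**
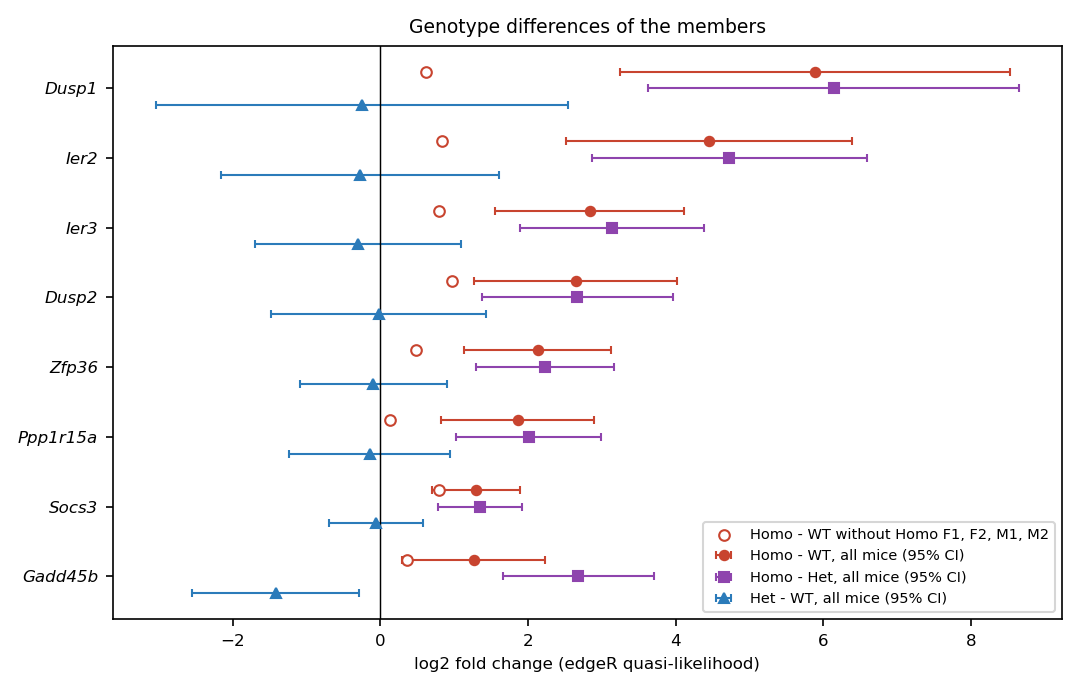
Log2 fold changes (x axis) of the 8 tested members (y axis) from edgeR's quasi-likelihood fit, with 95% confidence intervals, for homozygous against WT (circles), homozygous against heterozygous (squares) and heterozygous against WT (triangles); open circles leave out homozygous F1, F2, M1 and M2. Homozygous values run from 1.26 to 6.14 with all mice, the open circles from 0.12 to 0.98, and all 8 triangles lie below 0.

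Within homozygous mice, 8 of 8 members had a higher fitted mean in the range 03 than in the range 04, as did 50.9% of all genes, and 0 were called by edgeR's quasi-likelihood test (0.00805% of 12422 genes were called). At an unadjusted p below 0.05 there were 7 of 8, where 9.62% of all genes were, and DESeq2 called 4 of 8 (0.692% of all genes) and limma-voom 0 (0.00805%). The log2 differences went from 6.26 for Dusp1 (adjusted p = 0.16) to 0.46 for Socs3 (SE 0.44 and adjusted p = 0.79). Zfp36 did not overlap between the ranges, with 192 to 1235 CPM and 141 to 173 CPM, a separation in this direction seen in 1.01% of genes. Without F3 the count of calls was 3 (0.309% of all genes) and without M3 it was 2 (0.179%). Once F1, F2, M1 and M2 were left out, 5 of 8 members remained higher in the first range, with a median difference of 0.23, and 0 were called (2 at an unadjusted p below 0.05). Males and females did not differ detectably in the members (0 of 8 called by edgeR or limma-voom, where 0.0697% of all genes were, and 0 at an unadjusted p below 0.05, where 5.83% were). The change in homozygous mice did not differ detectably between the sexes either (0 of 8 and 0% of all genes by edgeR, 0 of 8 by limma-voom, and 0 of 8 at an unadjusted p below 0.05, where 4.99% of all genes were), but with 2 WT females the interval for Zfp36 ran from -2.12 to 1.84.

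The spread between mice changed along with the level. In WT littermates the SD of log2 CPM of the members was 0.18 to 0.74, with 1 of 8 above the 90th percentile of all genes, and in homozygous mice it was 0.84 to 3.41, with 7 of 8 above it. The median over all genes was 0.23 and 0.24, respectively. The genes whose profiles over the 23 mice lay closest to a member, by the root mean square difference of log2 CPM centred on WT, were taken as the 3 nearest. For Dusp1 they were Egr1 (0.70), Ier2 (0.84) and Jun (1.25), for Ier2 Jun, Dusp1 and Ier3 (0.65 to 0.84), and for Ier3 Jun, Junb and the chemokine Ccl3 (0.50 to 0.54). For Zfp36 they were Junb (0.23), Ccl4 (0.36) and Ppp1r15a (0.37), and for Dusp2 they were Ccl3, Zfp36 and Ccl4 (0.76 to 0.82).

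No paralog of the members was called against WT littermates, where 3.4% of all genes were. Of 22 tested paralogs of the members (other Dusp, Socs, Zfp36, Gadd45, Btg and Tob genes), 0 were called in the edgeR comparison of homozygous with WT mice, with 6 at an unadjusted p below 0.05 (27.1% of all genes were) and a median log2 fold change of 0.13. DESeq2 and limma-voom called 0 of them. Against heterozygous mice 2 of 22 were called, both higher and named after their values were seen, Gadd45g (log2 fold change 1.03, adjusted p = 0.0097) and Cish (2.42, adjusted p = 0.015), where 6.62% of all genes were. Cish was scarce, averaging 0.134 CPM in heterozygous mice, 0.728 CPM in homozygous mice and 0.742 CPM in WT littermates. It was thus low in heterozygous mice and not raised in homozygous mice against WT (log2 fold change 0.02, adjusted p = 0.99 by edgeR). Dusp6, the cytoplasmic ERK phosphatase and the most abundant paralog, had 749 ± 152 CPM (SD, n = 6) in WT littermates and 951 ± 231 CPM (SD, n = 10) in homozygous mice, with a log2 fold change of 0.32 (adjusted p = 0.15). Among 15 other inducible signal inhibitors 2 were called, both higher. Zc3h12a, whose product Regnase-1 cuts cytokine mRNAs, rose from 10.9 ± 1.35 to 19.1 ± 5.11 CPM (SD, n = 6 and 10; log2 fold change 0.84, adjusted p = 0.0010), with 10 of 10 homozygous mice above every WT littermate (0.674% of all genes), and it stayed called without the 4 mice (0.61, adjusted p = 0.014). Spred2, an inhibitor of Ras and Raf signaling, rose by 0.67 on the log2 scale (adjusted p = 0.042), a call lost when any of 11 of the 23 mice was left out, and without the 4 mice (0.70, adjusted p = 0.091). Ptpn6, the highest expressed of the others, had a log2 fold change of 0.15 (adjusted p = 0.088).

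Among the MAPK kinases, the receptors with JAKs and STATs, the stress response genes and the deadenylase genes, at most 1 per list was called, where 3.4% of all genes were. The AU-rich mRNAs that Zfp36 protein acts on are described in the next paragraph. Of 32 kinases of the MAPK cascades, 1 was called, Map3k8 (Tpl2), which activates MEK downstream of Toll-like receptors and rose from 10.1 ± 4.09 to 19.4 ± 4.98 CPM (log2 fold change 0.98, adjusted p = 0.0025). The list's median was 0.04, and its most abundant member, Rps6ka1, was at -0.07 (adjusted p = 0.49). At the adjusted p alone 3 kinases were higher and 2 lower, a share near that of all genes (12.7%). Named after its values were seen, Rps6ka4 was the lowest (-0.55, adjusted p = 0.00093 by edgeR). It was called lower without the 4 mice (-0.59, adjusted p = 0.0012). Of 20 gp130 and interferon receptors, JAKs and STATs, a list wider than the gp130 receptors and JAKs on which Socs3 acts, 0 were called, with a median of -0.04. Below the fold threshold, 3 of 20 passed the adjusted p (12.7% of all genes did), all lower, and they are named after their values were seen. That share is near that of all genes. Ifngr1 was at -0.50, Il6ra at -0.50 and Il6st, the gp130 subunit, at -0.42 on the log2 scale (adjusted p = 9.0e-05, 9.0e-05 and 0.035). Without the 4 mice Ifngr1 and Il6ra were at -0.52 and -0.53 (adjusted p = 0.00072 and 0.00051) and Il6st at -0.35 (adjusted p = 0.16). Among 19 genes of the integrated stress response, on which Ppp1r15a acts, Atf3 was called (0.94, adjusted p = 0.0037). It was higher in 10 of 10 homozygous mice than in any WT littermate, a separation in this direction found in 0.674% of all genes. Without the 4 mice Atf3 fell under the fold threshold (0.54, adjusted p = 0.0051). The list's median was 0.08, and Cebpb, the most abundant over all mice, was at 0.06 (adjusted p = 0.80). Against heterozygous mice 3 of the 19 were called, where 6.62% of all genes were. Named after their values were seen, they were Atf3 and Trib3, higher (1.04 and 1.98), and Ddit4, lower (-1.65). Trib3 was scarce, averaging 0.240 CPM in heterozygous mice, 0.618 CPM in WT littermates and 0.974 CPM in homozygous mice. Against WT its log2 fold change in homozygous mice was 0.62 (adjusted p = 0.61 by edgeR). Of 16 genes on the deadenylase list, mostly CCR4-NOT subunits but also Pabpc1, Pan2, Pan3 and Parn, 0 were called, with a median of 0.07. At an unadjusted p below 0.05 there were 6, and Cnot8, the most abundant, was at 0.02 (adjusted p = 0.88). Named after their values were seen, 2 passed the adjusted p by edgeR, both higher, Cnot7 (0.39, adjusted p = 0.0011) and Cnot2 (0.22, adjusted p = 0.041). Cnot7 was separated from WT like Atf3, in 10 of 10 mice. Without the 4 mice they were at 0.38 and 0.13 (adjusted p = 0.0090 and 0.28). DESeq2 and limma-voom called 0 of the deadenylase genes and 0 of the receptor and STAT genes, of which 5 had an unadjusted p below 0.05.

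Of 20 listed AU-rich mRNAs that tristetraprolin is known to bind, 11 were tested. This list was chosen with earlier results of these data known, so its share of calls is not independent evidence. Called higher were 9 of the 11, Ccl7 among them, where 1.65% of all genes were, with a median log2 fold change of 1.24. Whether tristetraprolin acted on them in these mice was not tested. Il10 and Ptgs2, among those not tested, lie in the stretch of chromosome 1 listed at 0. The largest were the chemokines Ccl2, Ccl7 and Ccl3 (3.36, 3.31 and 2.40, adjusted p = 0.00036, 0.0029 and 0.00094) and the cytokine Tnf (2.11, adjusted p = 0.020), and Vegfa, the most abundant not called, was near 0 (-0.02, adjusted p = 0.99). Without the 4 mice, 8 of 11 were called, where 2.52% of all genes were, with a median of 0.91. Ccl2, Ccl7 and Ccl3 then had log2 fold changes of 1.99, 2.74 and 1.09, all still called, and Tnf was at 1.01 (adjusted p = 0.31). Ccl7 averaged 0.273 CPM in WT littermates and 0.310 CPM in heterozygous mice, under the 0.742 CPM of the filter, so it was tested through the homozygous mice. The plot of gene lists shows both medians.

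**Figure D4:**
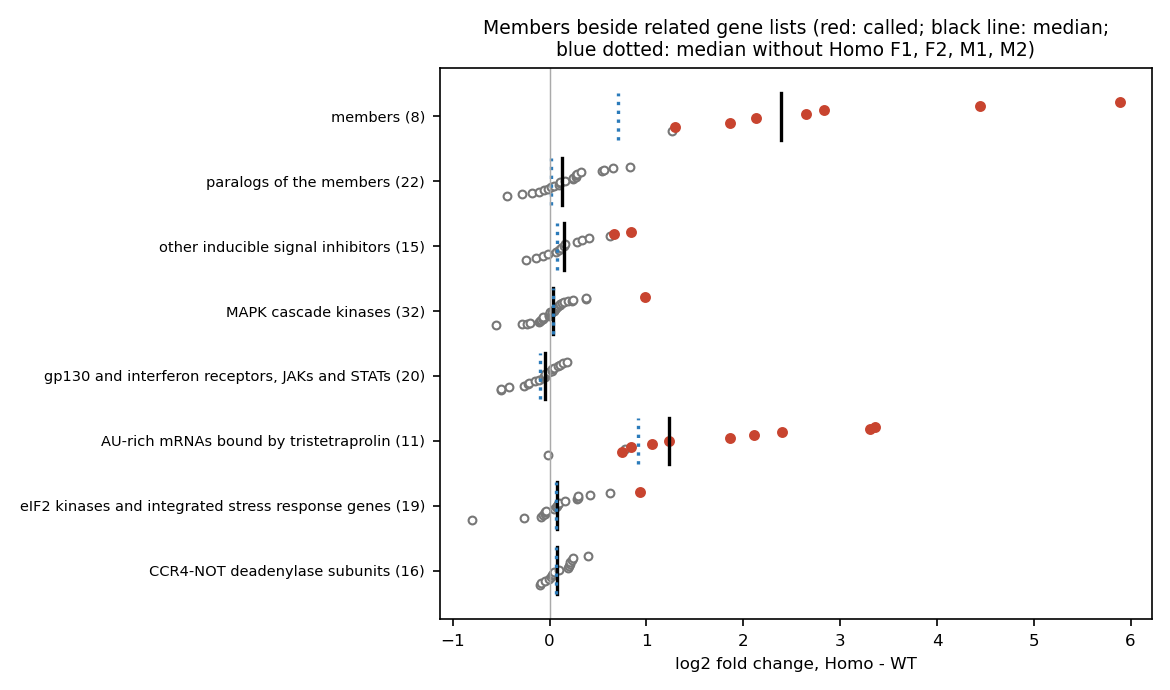
Log2 fold change, homozygous against WT (x axis), of each tested gene in the members and 7 related lists (rows, number tested in brackets), red where called; black lines are medians with all mice and blue dotted lines medians without homozygous F1, F2, M1 and M2. The members' median moves from 2.39 to 0.70 and that of the AU-rich mRNAs from 1.24 to 0.91, while the medians of the other lists lie between -0.10 and 0.15. The row of CCR4-NOT subunits also holds Pabpc1, Pan2, Pan3 and Parn.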

How the data were processed

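RNA from sorted microglia was sequenced, and counts were given for 23 mice. Per the submitters' notes, the authors used OmicSoft OSA4 for alignment to mm10, with Ensembl R84 genes, and the deposited values are RSEM expected counts, normalized neither for depth nor for length. Of 25 labelled samples, 2, a WT female and a heterozygous male, had no column and were not analysed here. The study reports removing 1 sample from each of these groups after sequencing, for few uniquely mapped reads and high duplication. Both were also outliers in its principal component analysis. Expected counts were rounded, filtered by edgeR's filterByExpr and normalized by TMM. The test was edgeR 4.0.16's quasi-likelihood test in R 4.3.3 with genotype and sex in one fit of all mice and Benjamini-Hochberg adjustment over 12908 genes (12422 within homozygous mice). Calls needed an adjusted p under 0.05 together with more than 1.5-fold change, or the adjusted p alone between the sexes' genotype effects. DESeq2 1.42.0 and limma-voom (limma 3.58.1) were alternatives, with the other normalizations, filters and samples given in the closing section. The edgeR, DESeq2, limma-voom and permutation tests of homozygous against WT mice were also run on simulated counts. Those counts had a capped spread and a common mean within each genotype. The members in homozygous mice were far more uneven, so that check does not bear on their calls. The members and gene lists were chosen with earlier results of these data known, so no list is independent evidence. Beyond the members, Fos and Bin1, the genes named were the called genes of each list (at most 4, by fold change), its most abundant gene not called, and the 3 nearest profiles of members with a log2 fold change above 2. Replicates are separate mice, 1 library each. Depth limits precision for members of a few counts, Dusp2 and Gadd45b. Gene symbols and positions come from GENCODE vM21 (GRCm38, the build of mm10, with a later gene model). Library totals ranged from 10812877 to 16734740. Figures were drawn with matplotlib 3.10.9.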

Additional observations from a re-analysis of the deposited data

Results flagged for a closer look

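Within a genotype, 5 of 24 sets of values (8 members in 3 genotypes) held a mouse whose gap to the next one, as a share of the whole range on the log2 CPM scale, passed Dixon's critical value, which chance alone exceeds in about 5% of sets. None was in homozygous mice, but the gap of 1 mouse to the next cannot flag 4 mice that are high together, as F1, F2, M1 and M2 were. Dusp2 in heterozygous M1 was low (gap 0.695 of the range, a count of 0 against a next value of 0.730 CPM). Ier2 was high in WT F2 (0.683, 23.6 CPM with the next at 14.5), and Ier3 was high in WT M4 (0.680, 8.12 CPM with the next at 4.93). Ier3 and Ppp1r15a were both high in heterozygous F1, with gaps of 0.632 (8.46 CPM, next 3.67) and 0.715 (34.9 CPM, next 25.8).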

How the results depend on the processing

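With all mice, 7 of 8 members called against WT and 8 of 8 against heterozygous mice held under DESeq2, robust edgeR, RLE and upper quartile normalization, no filter, a stricter filter, no sex term and fits of the groups alone, and no member's fold change against WT or heterozygous mice turned in any alternative run. Against WT, the count was 2 by limma-voom, 1 with homozygous mice of the number range 04 alone, 1 without homozygous F1, F2, M1 and M2, and 0 by exact permutation. Against heterozygous mice it was 5, 4, 4 and 5 in that order. Between number ranges it was 4 by DESeq2 and 6 without a filter. Leaving out each mouse in turn gave 7 to 8 calls against WT (Gadd45b was gained without homozygous F4, adjusted p = 0.045 by edgeR's quasi-likelihood test), 8 against heterozygous mice, 0 to 3 between ranges, 0 to 1 among paralogs, 1 to 2 among other inhibitors, 1 to 2 among MAPK kinases and 7 to 9 among AU-rich mRNAs (Il1b was lost in 6 of 23 fits). The paralog gained was Gadd45g. Spred2 was the inhibitor lost, without homozygous F1, F2, F4, M3, M4 or M5 or any WT mouse but F2. By list, without a filter there was 1 paralog and 1 other inhibitor called. At the adjusted p alone there were 5 MAPK kinases, 3 receptors, 2 stress response and 2 deadenylase genes. The fit of the 2 groups alone and the exact permutation test each called 1 other inhibitor. The range 03 alone gave 2 paralogs and 1 other inhibitor, and the range 04 alone 1 other inhibitor and 2 MAPK kinases. AU-rich mRNAs called were 6 by exact permutation, 8 by limma-voom and 7 with either range alone. Without the 4 mice there were 1 other inhibitor, 2 MAPK kinases (Rps6ka4, which was lower, was gained) and 0 stress response genes. Apart from the alternatives with fewer mice, the cause of these differences was not tested. The 4 mice were picked by their values in these data, so each fit without them was chosen after seeing the data. This holds against WT, against heterozygous mice and between number ranges. No paired analysis was possible because the groups share no numbered pairs of mice.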
